A study of Mus musculus with 6 samples.

Results

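The 36 genes described here encode the chaperones of the endoplasmic reticulum (ER), the disulfide isomerases, the machinery that brings proteins into the ER and removes misfolded ones, and the sensors of the unfolded protein response. They were chosen by name, and all 36 were present among the 24982 gene symbols of the deposited count table, which writes symbols in capitals (HSPA5, CALR, XBP1, SYVN1 and SPCS3, for example). Of these, 35 had enough reads to be tested. Derl3 did not, with 29, 5 and 3 counts in KO replicates 1, 2 and 3, against 1, 7 and 10 counts in WT replicate 1, WT replicate 2 and the library labelled WT replicate 3.

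The ER is where secreted and membrane proteins are folded. When unfolded protein accumulates there, the sensors IRE1 (encoded by Ern1), PERK (Eif2ak3) and ATF6 respond: IRE1 splices Xbp1 mRNA into the form that encodes an active transcription factor, ATF6 is cut to release another, and PERK slows translation. Their target genes include most of the chaperones, and activated lymphocytes use the same machinery for the receptors and cytokines they make.

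The data are RNA-seq of natural regulatory T (nTreg) cells, sorted from mouse spleen as CD4+CD25+CD127lo, of 2 genotypes with 3 libraries each. KO cells came from Srsf1-flox/flox dLck.Cre mice, in which a Cre driven by a T cell promoter removes the splicing factor gene Srsf1. The mice used for comparison are labelled WT, and whether they carried the Cre is not given in the sources used here. All mice were of the B6.129 strain and 8 to 10 weeks old, and every library is of stimulated cells, which had received anti-CD28 and anti-CD3 at 2 µg/ml each plus 10 ng/ml of recombinant interleukin-2 over 72 h. No unstimulated cells were compared. Gene counts measure total mRNA of a gene and do not separate spliced from unspliced Xbp1.

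Total counts ran from 10183626 to 20373649 in KO libraries and from 23263741 to 27562046 in WT libraries. KO replicate 1 stood apart: its log2 CPM values correlated with those of the other libraries at r = 0.900 to 0.927 across genes, against 0.945 to 0.989 among the other 5. CPM are counts scaled to library size and normalised between libraries. By the counts of Y-linked genes, the libraries were of both sexes. Xist in KO replicate 1 was +2.59 log2 CPM against the mean of KO replicates 2 and 3. The part of sex in the deviation of that library was not tested. Srsf1 was at 438, 812 and 787 CPM in KO replicates 1, 2 and 3, against 1214 and 1230 CPM in WT replicates 1 and 2 and 755 CPM in the library labelled WT replicate 3, which thus lay below KO replicates 2 and 3. These counts cover the whole gene, including exons outside any deleted part, and directions below follow the labels. The log2 fold change of Srsf1 was -0.65 (SE 0.32, edgeR adjusted p = 0.682), so the targeted gene itself did not pass. The 5 listed Treg cell markers (Foxp3, Il2ra, Ikzf2, Ctla4 and Tnfrsf18) summed to 4627 to 8275 CPM in KO and 5022 to 8143 CPM in WT, but not all stood alike. The lineage factor gene Foxp3 stood at 464, 357 and 413 CPM in KO and at 160, 121 and 104 CPM in WT, without overlap (log2 fold change +1.68, SE 0.25, edgeR adjusted p = 0.197). Ikzf2 likewise did not overlap, at 170, 305 and 195 CPM in KO and 115, 155 and 85.6 CPM in WT. The groups overlapped for the rest of the list. Ctla4 leaned the other way, at 224, 353 and 574 CPM in KO and 450, 431 and 1105 CPM in WT. Il2ra was at 3300, 4929 and 6880 CPM in KO and 5429, 4073 and 6566 CPM in WT. Tnfrsf18 was at 469, 208 and 213 CPM in KO and 198, 243 and 282 CPM in WT. The CD4 T cell markers Cd3e, Cd3g and Cd4 summed to 979 to 1140 CPM in KO and 687 to 788 CPM in WT. Of cells that secrete heavily and so carry much ER, plasma cells were represented by 6 listed markers, Derl3 among them, whose summed level was 64.5 to 86.0 CPM in KO and 40.3 to 76.5 CPM in WT, mostly from Prdm1 and Sdc1. Tnfrsf17 was listed at 0 in all libraries and Mzb1 had at most 2 counts. Macrophage markers (5 on the list, of which Csf1r and Lyz2 were listed at 0, as was the ribosomal protein gene Rpl26) summed to 0.226 to 0.501 CPM in KO and 0.0452 to 0.251 CPM in WT. B cell markers summed to 0.802 to 4.80 CPM in KO and 2.55 to 4.41 CPM in WT. For dendritic cell markers the sums were 2.31 to 5.17 and 1.99 to 2.67 CPM. NK cell markers, with at most 27 counts per gene, summed to 1.19 to 3.92 CPM in KO and 0.235 to 0.825 CPM in WT, without overlap. The CD8 T cell markers Cd8a and Cd8b1 summed to 38.9 to 60.5 CPM in KO and 193 to 269 CPM in WT, and the part of these marker differences in the values below was not tested.

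The regulatory sequence that links many of these genes was looked up first. The ER stress response element (ERSE) is a CCAAT box and a CCACG box separated by 9 bases of any kind, bound by NF-Y together with ATF6. In the shorter ERSE-II, ATTGG and CCACG are separated by 1 base. Both were searched on both strands in the 250 bases before each gene's start in RefSeq (GRCm38.p6), which held an entry for 29 of the 36 genes. Of these, 9 had an ERSE and 1, Herpud1, an ERSE-II, against 0.130% and 0.037% of all 27025 genes with an entry. The genes here were named as parts of this response, so the elements describe the list and are not evidence from the cells. Each stretch below is written along the gene's strand with the conserved boxes in capitals and, where the boxes read CGTGG and ATTGG, with the element on the opposite strand.

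Hspa5: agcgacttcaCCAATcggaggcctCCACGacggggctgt
Hsp90b1: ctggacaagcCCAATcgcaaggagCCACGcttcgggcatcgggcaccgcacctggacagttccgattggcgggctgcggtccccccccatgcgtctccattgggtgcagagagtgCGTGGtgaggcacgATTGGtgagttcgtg
Calr: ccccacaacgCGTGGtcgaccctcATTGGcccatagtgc
Canx: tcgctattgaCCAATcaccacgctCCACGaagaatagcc
Pdia6: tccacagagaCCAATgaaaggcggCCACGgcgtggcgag
Dnajc3: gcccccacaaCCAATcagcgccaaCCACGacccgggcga
Creld2: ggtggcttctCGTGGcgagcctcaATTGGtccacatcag
Syvn1: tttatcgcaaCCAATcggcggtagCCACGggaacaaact
Herpud1: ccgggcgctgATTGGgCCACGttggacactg

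In GRCm38.p6 these stretches lie at chr2:34772015-34772053 on the plus strand for Hspa5, chr10:86705523-86705666 on the minus strand for Hsp90b1, chr8:84847065-84847103 on the minus strand for Calr and chr11:50325790-50325828 on the minus strand for Canx. Those of Pdia6 (chr12:17266481-17266519), Dnajc3 (chr14:118937817-118937855), Creld2 (chr15:88819510-88819548), Syvn1 (chr19:6046522-6046560) and Herpud1 (chr8:94386367-94386397) are on the plus strand. The remaining ERSE was in Derl3, 138 to 156 bases before its start. By these exact letters, Hsp90b1 alone among the 29 held 2 elements. Elements with changed letters in a box were not searched for, so other genes may hold more. The boxes are the same in all 9 genes with an ERSE because the search fixed them, while the spacer differs from gene to gene.

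**Figure D1:**
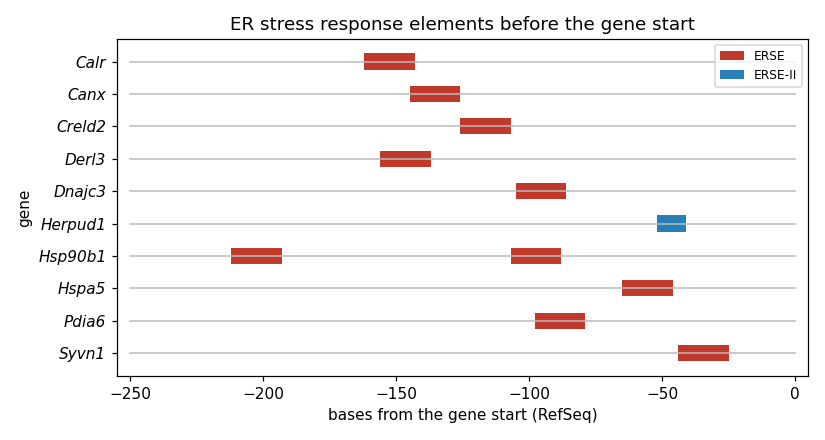
Position of each ERSE (red) and ERSE-II (blue) in the 250 bases before the start of the 10 genes that hold one, on a horizontal axis of bases from the RefSeq gene start. The element nearest to a start is that of Syvn1, 26 to 44 bases away, and the farthest is the first of Hsp90b1, 194 to 212 bases away.

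The comparison asks whether expression of the ER folding machinery differs between stimulated Treg cells labelled KO and WT for Srsf1. No gene of the 35 differed between KO and WT at an adjusted p under 0.05 in edgeR's quasi-likelihood test, where 0.017% of the 11772 genes tested did. Adjusted p ranged from 0.684 for Spcs3 to 0.998 for Dnajb9, and the lowest unadjusted p was 0.0825. DESeq2 called 0 of the 35, with a lowest adjusted p of 0.601, and 0.901% of all genes. In bulk RNA, fewer cells of a type and less RNA per cell cannot be told apart. The log2 fold changes of 13 genes were above 0 and of 22 below 0, with a median of -0.07, beside 51.6% of all tested genes above 0 and a median of +0.02. The groups did not overlap for 6 genes, Spcs3, Ssr1, Edem1, Spcs2, Sel1l and Manf, each with the KO libraries below the WT libraries, which is 17.1% of the 35 against 8.18% of all genes. In the opposite direction the count was 0, against 7.48% of all genes.

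KO replicate 1 set much of what the fold changes show. It lay beyond the other 5 libraries for 24 of the 35 genes (68.6%, against 71.5% of all genes), above them for 9 and below them for 15. Without it the fold changes ran from -0.48 (Sec61b) to +0.41 (Dnajb9), and 9 genes were above 0 and 26 below, with a median of -0.10, beside 46.4% of all genes above 0 and a median of -0.03. No gene passed in that fit either (lowest edgeR adjusted p = 0.428, with 0.025% of all genes called). At an unadjusted p under 0.05 it held 2 of the 35, Sec61b and Spcs3, against 10.4% of all genes. The number of genes with a log2 fold change beyond 0.5 in either direction was 3 with all libraries and 0 without KO replicate 1. The library labelled WT replicate 3 lay beyond the other 5 for 17 of the 35 genes, and the remaining libraries for 6 to 9. Shares over all genes were not computed for these libraries.

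**Figure D2:**
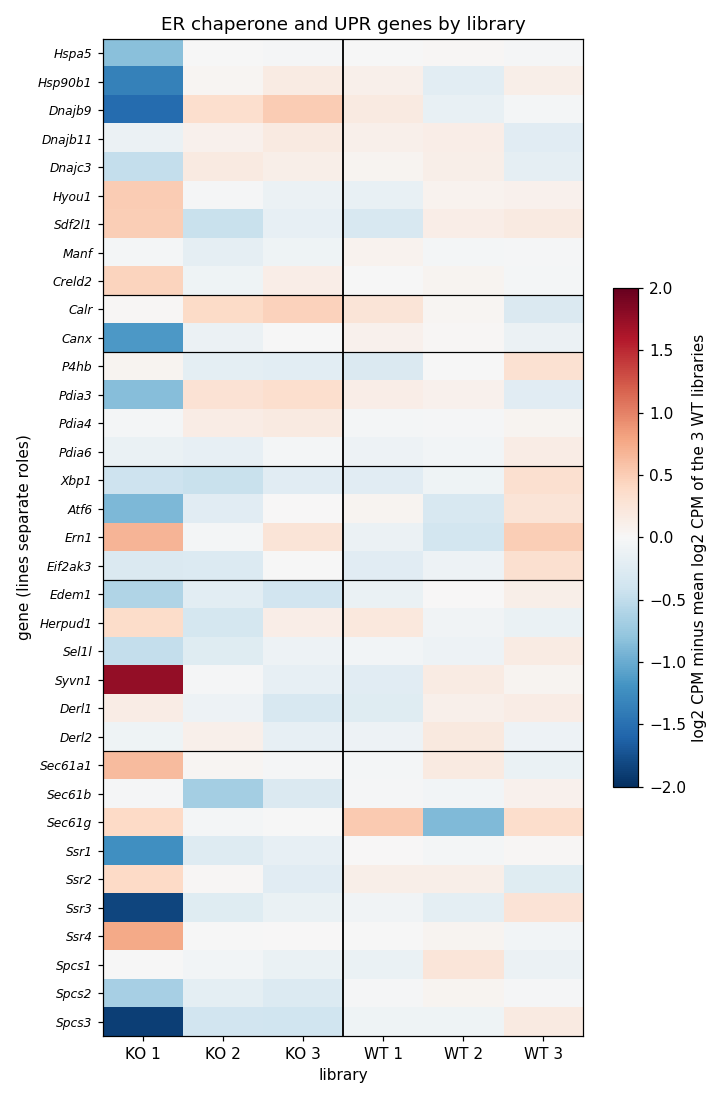
Level of the 35 tested genes in each library, as log2 CPM minus the mean log2 CPM of the 3 WT libraries, with KO libraries on the left and genes grouped by role. The column of KO 1 holds the deepest blue (Spcs3, Ssr3, Dnajb9) and the deepest red (Syvn1), while the other 5 columns are pale for most genes.

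Luminal chaperones hold nascent proteins in the ER lumen, with BiP, encoded by Hspa5, as the central one and as the protein that keeps the sensors inactive. Hspa5 was at 921, 1633 and 1614 CPM in KO replicates 1, 2 and 3, against 1638, 1659 and 1621 CPM in WT replicates 1 and 2 and the library labelled WT replicate 3. Apart from KO replicate 1 the 5 libraries thus lay together, with a coefficient of variation of 1.06%, the smallest of the 35 genes. The log2 fold change was -0.24 (SE 0.27, edgeR adjusted p = 0.814), with a 95% interval of 0.550-fold to 1.31-fold, and -0.01 without KO replicate 1. Hsp90b1, which encodes the ER form of HSP90, was at 885, 2303 and 2512 CPM in KO and at 2421, 1937 and 2432 CPM in WT. The KO libraries spanned the WT range on both sides (-0.25, SE 0.38, and +0.09 without KO replicate 1).

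The cofactors of BiP followed no common direction. Dnajb9, whose product ERdj4 restrains IRE1, was at 4.98, 18.3 and 20.7 CPM in KO and at 16.5, 13.1 and 14.2 CPM in WT. KO replicates 2 and 3 were the highest of the 6 libraries and KO replicate 1 the lowest, so the log2 fold change was -0.003 with all libraries and +0.41 without KO replicate 1 (edgeR adjusted p = 0.998 and 0.516). Dnajb11 (ERdj3) and Dnajc3 (p58IPK), which bring clients to BiP, stood at +0.05 and -0.04, and at +0.12 and +0.14 without KO replicate 1. Hyou1, the exchange factor that releases them, stood at +0.14, and at -0.08 without KO replicate 1. Sdf2l1, a partner of ERdj3, was at 110, 57.1 and 69.6 CPM in KO and at 62.9, 85.2 and 88.9 CPM in WT, a log2 fold change of -0.003 that became -0.32 without KO replicate 1. Of the small secreted ER stress proteins, Creld2 stood at +0.18 (+0.03 without KO replicate 1) and Manf at -0.10 (-0.13). The KO libraries of Manf (250.4, 227 and 243 CPM) lay below those of WT (269, 251.0 and 252 CPM) by less than 1 CPM at the nearest pair.

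The lectin chaperones calnexin (Canx), in the membrane, and calreticulin (Calr), in the lumen, hold glycoproteins through their sugars. Calr was at 1813, 2340 and 2473 CPM in KO and at 2136, 1838 and 1462 CPM in WT (log2 fold change +0.29, SE 0.25, edgeR adjusted p = 0.773). KO replicates 2 and 3 were above every WT library and KO replicate 1 among them. Canx was at 725, 1482 and 1609 CPM in KO and at 1711, 1637 and 1490 CPM in WT (-0.34, SE 0.32, adjusted p = 0.779). Without KO replicate 1 the values were +0.41 for Calr and -0.06 for Canx.

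Protein disulfide isomerases form and rearrange disulfide bonds. Their 4 genes stood close to 0, with P4hb at -0.13, Pdia3 at +0.01, Pdia4 at +0.10 and Pdia6 at -0.11 (edgeR adjusted p = 0.876 to 0.993). Pdia3 encodes ERp57, which works with calnexin and calreticulin, and was at 534, 1187 and 1220 CPM in KO and at 1064, 1030 and 831 CPM in WT. As for Calr, KO replicates 2 and 3 lay above the WT libraries, but KO replicate 1 lay below them, and without it the log2 fold change was +0.30.

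Among the sensors and their transcription factors, Xbp1 was at 174, 170 and 198 CPM in KO and at 197, 217 and 287 CPM in WT. The groups overlapped by KO replicate 3 and WT replicate 1, and the library labelled WT replicate 3 was the highest (log2 fold change -0.37, SE 0.23, edgeR adjusted p = 0.728). This value changed little without KO replicate 1 (-0.35), but with each library left out in turn it ran from -0.49 to -0.21. Atf6 was at 50.1, 79.7 and 93.8 CPM in KO and at 97.3, 75.4 and 112 CPM in WT (-0.35, SE 0.29, and -0.13 without KO replicate 1). Eif2ak3 was at 34.1, 34.4 and 41.3 CPM in KO and at 35.8, 38.9 and 51.9 CPM in WT (-0.21, SE 0.24, and -0.16 without KO replicate 1). With each library left out in turn, the value of Eif2ak3 ran from -0.32 to -0.04. Ern1 was the least abundant of these 4, at 15.6, 9.51 and 11.6 CPM in KO and at 8.99, 7.57 and 13.7 CPM in WT (+0.28, SE 0.35, and +0.06 without KO replicate 1). For all 4 genes, the library labelled WT replicate 3 was the highest of the WT libraries.

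**Figure D3:**
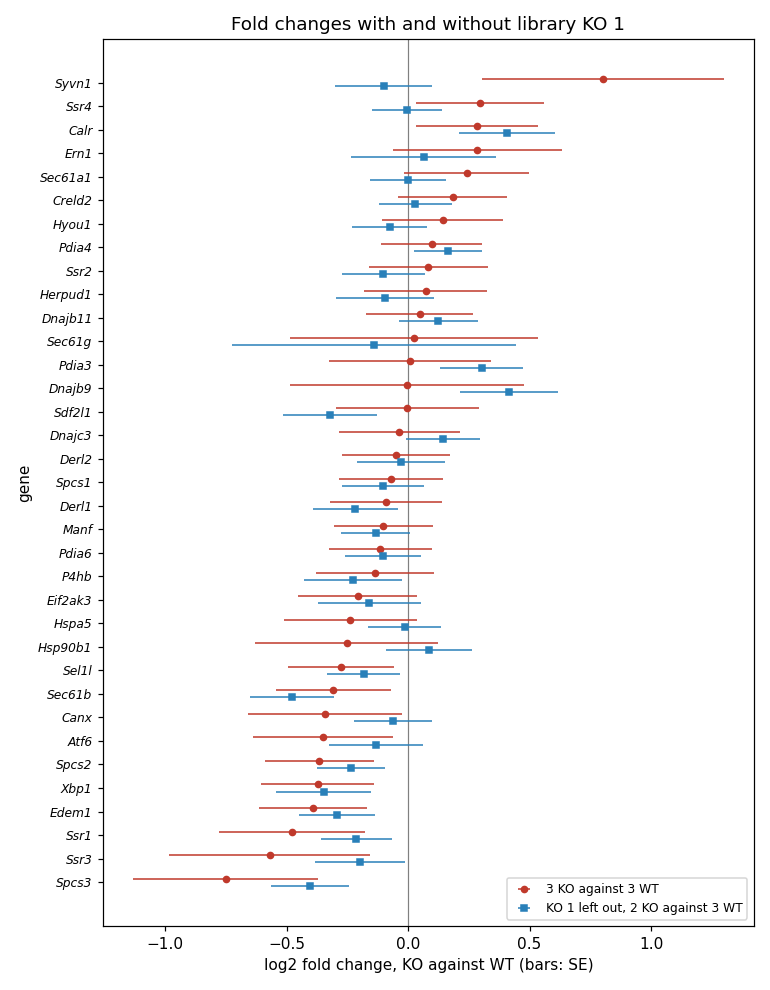
Log2 fold change of KO against WT with its standard error for the 35 tested genes, with all 6 libraries (red circles) and with KO 1 left out (blue squares). Syvn1, at +0.80, and Spcs3, at -0.75, are the ends of the range with all libraries and stand at -0.10 and -0.40 without KO 1.

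Genes of ER-associated degradation mark misfolded proteins and pull them back to the cytosol. Of the 7, 6 were tested, and 0 passed. Edem1, a lectin that trims and delivers misfolded glycoproteins, was at 207, 273 and 243 CPM in KO and at 288, 318 and 341 CPM in WT. Each KO library lay below each WT library, with a log2 fold change of -0.39 (SE 0.22, edgeR adjusted p = 0.716) and of -0.29 without KO replicate 1. Sel1l, the scaffold of the main ubiquitin ligase of the ER, was at 108, 127 and 140.3 CPM in KO and at 146, 140.4 and 169 CPM in WT, with KO replicate 3 and WT replicate 2 nearly level (-0.28, SE 0.22).

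Syvn1 encodes HRD1, the ligase that Sel1l holds. It was at 69.8, 20.3 and 18.5 CPM in KO and at 17.8, 23.3 and 21.4 CPM in WT. KO replicate 1 was at about 3 times the next highest library, and KO replicates 2 and 3 lay within the WT range. The log2 fold change of +0.80 (SE 0.50, edgeR adjusted p = 0.724) was therefore the value of 1 library, and it stood at -0.10 without it. Herpud1, which organises the ligase complex, stood at +0.07, and the derlins Derl1 and Derl2, which form part of the exit channel, at -0.09 and -0.05. Without KO replicate 1 all 6 tested genes of this group stood below 0, from -0.29 to -0.03.

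Genes of protein entry included the lowest single fold change of the 35. The Sec61 channel takes in the growing chain, the translocon-associated proteins (Ssr1 to Ssr4) assist it, and the signal peptidase subunits (Spcs1 to Spcs3) belong to the enzyme that removes the signal peptide. Of the 10 genes 4 were above 0, Sec61g among them, and 6 below 0, with a median of -0.19. Spcs3 was at 160.2, 453 and 448 CPM in KO and at 556, 560 and 669 CPM in WT. Each KO library lay below each WT library, and KO replicate 1 far below the rest (-0.75, SE 0.38, edgeR adjusted p = 0.684, 95% interval 0.325-fold to 1.09-fold, and -0.40 without KO replicate 1). Spcs2 was at 162, 227 and 213 CPM in KO and at 254, 268 and 253 CPM in WT (-0.37, SE 0.22), again without overlap, while Spcs1 stood at -0.07.

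Ssr1 was at 247, 481 and 514 CPM in KO and at 581, 562 and 587 CPM in WT, and its groups did not overlap (-0.48, SE 0.30, and -0.21 without KO replicate 1). Ssr3 was at 192, 583 and 626 CPM in KO and at 653, 600 and 827 CPM in WT (-0.57, SE 0.41, and -0.20 without KO replicate 1). KO replicate 3 lay above WT replicate 2 there. Ssr4 was at 96.3, 56.5 and 57.5 CPM in KO and at 57.0, 59.3 and 55.0 CPM in WT, so that 5 libraries agreed closely and KO replicate 1 stood above them (+0.30, SE 0.26). Ssr2 stood at +0.08.

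Of the channel subunits, Sec61a1, the pore itself, was at 398, 263 and 251 CPM in KO and at 250.1, 288 and 233 CPM in WT (+0.24, SE 0.26), and its value without KO replicate 1 was -0.002. Sec61b was at 62.9, 39.6 and 52.1 CPM in KO and at 62.6, 61.4 and 67.3 CPM in WT. KO replicate 2 was the lowest and KO replicate 1 lay among the WT libraries (-0.31, SE 0.24, and -0.48 without KO replicate 1, edgeR adjusted p = 0.754 and 0.428). Sec61g cannot be read from the counts. It had 29, 13 and 10 counts in KO and 32, 14 and 36 in WT, yet the authors' FPKM (fragments scaled to transcript length and library size) were 53.8, 37.2 and 59.1 in KO and 61.1, 55.8 and 66.5 in WT. Its ratio of unnormalised CPM to FPKM was 0.019, against 0.361 to 9.82 for the other 35 genes, so the deposited tables disagree on it. Leaving Sec61g aside, the 9 genes of protein entry stood between -0.48 and -0.002 without KO replicate 1, with Sec61a1 and Ssr4 (-0.004) level with 0. In that fit 46.4% of all tested genes were above 0, with a median of -0.03.

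The sign of the deviation of KO replicate 1 went with the base composition of the transcripts. Across the 35 genes, the log2 CPM of KO replicate 1 minus the mean of KO replicates 2 and 3 correlated with the GC content of the longest annotated transcript at r = 0.81. Across all 11701 tested genes with a transcript the value was r = 0.81, and for KO replicate 3 minus KO replicate 2 it was 0.20 over the 35 genes and 0.03 over all genes. The points of each correlation share the same libraries and are not independent, and no test is given. Spcs3 has the lowest GC content of the 35 (40.2%) and Sdf2l1 the highest (56.7%), with Syvn1 at 56.6%, and their deviations in KO replicate 1 were -1.49, +0.80 and +1.84. Reads of KO replicate 1 also had the highest mismatch rate, 0.52%, where the other libraries had 0.32% to 0.43%. With an offset for GC content and transcript length in each library, Syvn1 stood at +0.28, Ssr3 at -0.38, Spcs3 at -0.52 and Sec61b at -0.51 (edgeR adjusted p = 0.731, 0.540, 0.280 and 0.333). In that fit 0 of the 35 passed and 2, Spcs3 and Sec61b, had an unadjusted p under 0.05, against 11.9% of all genes.

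**Figure D4:**
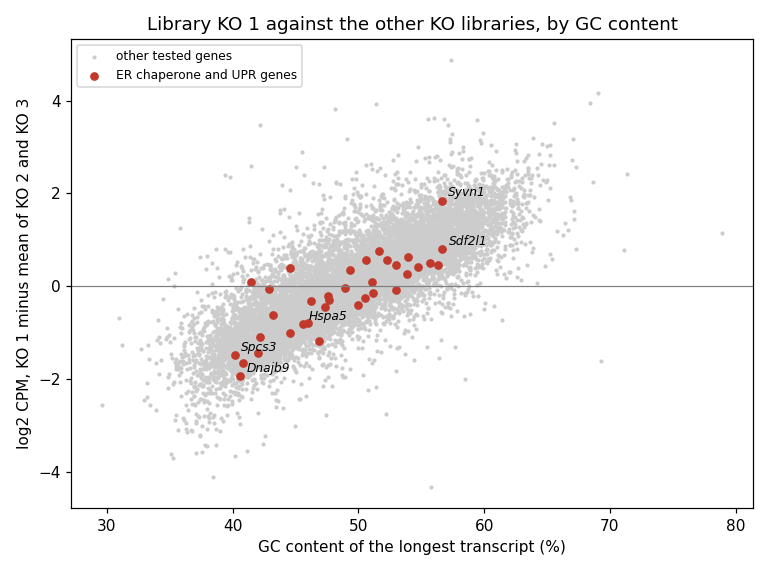
Log2 CPM of KO 1 minus the mean of KO 2 and KO 3 (vertical axis) against the GC content of the longest transcript in percent (horizontal axis), for the 35 genes (red) and the other tested genes (grey). GC-poor genes such as Dnajb9 and Spcs3 lie toward the lower left and the GC-rich Syvn1 toward the upper right, within the cloud of all genes.

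The genes with an ER stress response element showed no common shift. The 9 that were tested ran from -0.34 (Canx) to +0.80 (Syvn1), with a median of -0.04 and 4 above 0. The 19 with a RefSeq entry and no element of the exact letters ran from -0.57 to +0.30, with a median of -0.07. Without KO replicate 1 the medians were -0.01 and -0.16. The gene holding 2 elements, Hsp90b1, stood at -0.25 and, without KO replicate 1, at +0.09.

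Levels per length were compared with the authors' FPKM. Calr had the highest mean, 937 ± 68.1 FPKM in KO and 751 ± 109 FPKM in WT (SD, n = 3 each). Hsp90b1 followed with 530.5 ± 218 FPKM in KO and 629 ± 81.0 FPKM in WT, and Hspa5 with 438 ± 101 FPKM in KO and 513 ± 23.1 FPKM in WT. Within KO the spread of Hsp90b1 and Hspa5 exceeds their difference, so these neighbours are not separated there. In the library labelled WT replicate 3, Calr was below Hsp90b1, at 633 and 702 FPKM. Xbp1 was at 66.6 ± 5.64 FPKM in KO and 84.7 ± 20.4 FPKM in WT. The sensors were far lower, with Atf6 at 7.56 ± 1.69 FPKM in KO and 9.52 ± 2.07 FPKM in WT, Eif2ak3 at 6.33 ± 0.544 FPKM in KO and 7.33 ± 1.78 FPKM in WT, and Ern1 at 2.33 ± 0.818 FPKM in KO and 1.77 ± 0.691 FPKM in WT. In KO, Atf6 and Eif2ak3 differ by less than the SD of Atf6. Derl3, known for its expression in secretory cells, was listed at 1.18, 0.263 and 0.279 FPKM in KO, against 0, 0.181 and 0.258 FPKM in WT.

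**Figure D5:**
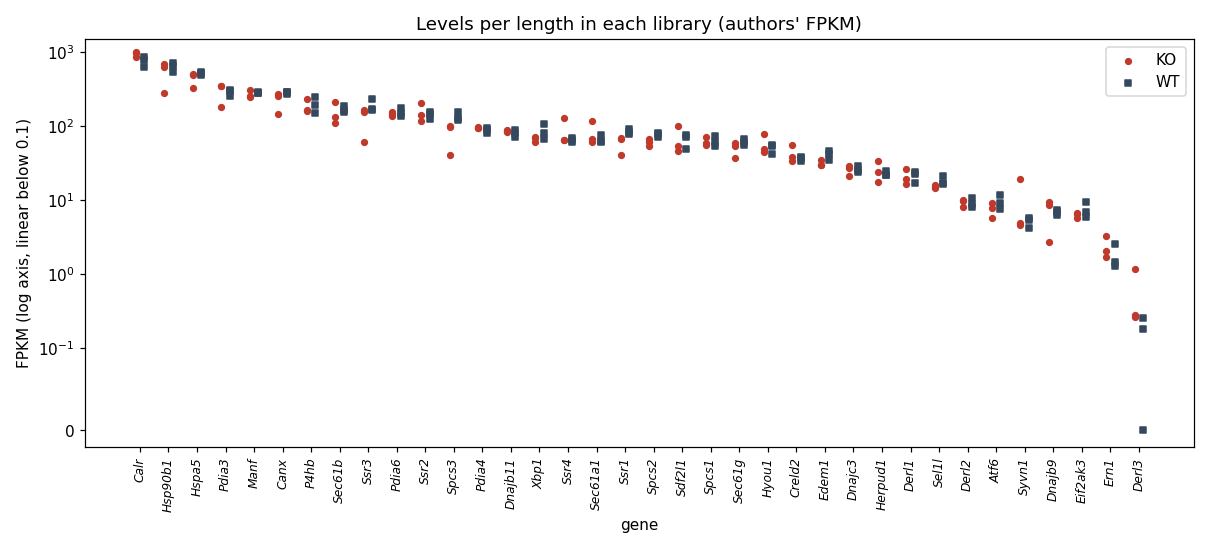
FPKM of all 36 genes in each library on a log axis that is linear below 0.1, with KO libraries as red circles and WT libraries as dark squares, ordered by the mean over the 6 libraries. Calr, Hsp90b1 and Hspa5 stand at the left above most genes, and Eif2ak3, Ern1 and Derl3 at the right.

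A further 85 genes of the same pathways were read from lists, of which 84 were tested and 0 passed in either direction (lowest edgeR adjusted p = 0.456), with 33 above 0 and 51 below. Of 13 other genes of translocation 4 were above 0 (median -0.16) with all libraries and 7 without KO replicate 1 (median +0.01), and those with the smallest p were Sec61a2 at -0.39, Sec11a at -0.26 and Srp54a at +0.95, a gene with the near-identical relatives Srp54b and Srp54c, whose value is uncertain and stood at -1.31 without KO replicate 1. Of 15 tested genes of N-glycosylation 8 were above 0 (median +0.01), and 4 without KO replicate 1 (median -0.03). The oligosaccharyltransferase subunit Dad1 was at 134, 43.7 and 47.1 CPM in KO and at 43.1, 39.5 and 36.3 CPM in WT (+0.92, and +0.20 without KO replicate 1). Magt1 and Ostc, of the same list, stood at -0.60 and -0.35. Of 20 other degradation genes 7 were above 0 (median -0.04), and 10 without KO replicate 1 (median +0.004). Those with the smallest p were Aup1 at +0.45, Yod1 at -0.47 and Ube2g2 at +0.41, which stood at +0.07, -0.27 and +0.16 without KO replicate 1.

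Of 19 other folding factors 5 were above 0 (median -0.15), and 6 without KO replicate 1 (median -0.05). The prolyl isomerase gene Fkbp11 was at 2.01, 0.604 and 1.10 CPM in KO and at 3.21, 2.94 and 4.70 CPM in WT (log2 fold change -1.51, SE 0.51, and -2.10 without KO replicate 1). The oxidase gene Ero1a, which recharges the disulfide isomerases, was at 111, 223 and 248 CPM in KO and at 322, 259 and 1308 CPM in WT (-1.70, SE 0.62). The library labelled WT replicate 3 was about 4 times the next highest library for this gene. Tmx3, a membrane-bound isomerase, stood at -0.82 and, without KO replicate 1, at -0.40.

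Of 17 other genes of unfolded protein response signalling 9 were above 0 (median +0.12), but 4 without KO replicate 1 (median -0.08), so that the sign of the median turned with 1 library. The 3 with the smallest p, none of which passed, were Trib3, Atf4 and Ddit3. Trib3, a pseudokinase induced by ATF4, was at 11.4, 4.53 and 12.5 CPM in KO and at 24.5, 21.8 and 33.3 CPM in WT (log2 fold change -1.48, SE 0.41, edgeR adjusted p = 0.456). Atf4, the transcription factor itself, was at 337, 262 and 394 CPM in KO and at 541, 445 and 435 CPM in WT (-0.52, SE 0.24, adjusted p = 0.667). The groups did not overlap for either gene, and the values without KO replicate 1 were -1.65 and -0.53. Ddit3, which encodes CHOP, stood at -0.74 (SE 0.37) with overlapping groups.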

How the data were processed

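The deposited tables hold raw counts per gene symbol, as whole numbers, and FPKM computed by the authors, with 1 column per library. STAR 2.4.2a was the aligner, per the file headers, and mm9 the genome, per the submitters' processing notes. The design text names a stranded kit and the VIPER pipeline. How reads were assigned to genes, and on which strand, is not stated, so antisense or overlapping genes may share reads. A source label calls the cells effector CD4 T cells; the titles and protocols, which name nTreg cells, were followed.

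The whole count table was tested in edgeR 4.0.16 (R 4.3.3): TMM scaling, filterByExpr with a minimum count of 10, the quasi-likelihood F test of 3 KO against 3 WT libraries, and Benjamini-Hochberg adjustment over 11772 genes at 0.05. Standard errors and 95% intervals come from the F statistic. Libraries are taken as separate mice, after the design text. Every pair differed beyond counting noise (chi-square per degree of freedom 22.0 to 375), so none is a copy of another. That check cannot show that the mice were separate. A total of 26 date-like entries, 0.271% of counts, stayed in the table. A floor of 3 counts equals 0.109 to 0.295 CPM, for counting error only.

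Genes and lists were chosen with earlier results of these data known. Values per library follow a rule: Hspa5, Xbp1, Atf6, Ern1, Eif2ak3 and the 12 other members with the smallest p, plus up to 3 genes of each further list. Those of Hsp90b1, Dnajb9, Sdf2l1, Manf, Pdia3, Derl3 and Sec61g were added after they were seen. Alternatives were DESeq2 1.42.0, limma 3.58.1 (voom, and log2 FPKM plus a pseudocount of 1 or 0.1), other scalings and filters, a replicate block and left-out libraries. An offset for GC content and transcript length (loess, span 0.3) and a sex covariate were chosen after seeing the data. The sex covariate divided the libraries by whether the counts of Ddx3y, Eif2s3y, Kdm5d and Uty summed to over 100. Xist in KO replicate 1 stood at +2.59 log2 CPM against the mean of KO replicates 2 and 3. The fit was also run on simulated data, the outcome of which is not reported here.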

Additional observations from a re-analysis of the deposited data

How the results depend on the processing

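None of the members passed under any of the 21 alternatives, and the lowest adjusted p among them was 0.280, for Spcs3 with the GC content and length offset. Over all tested genes, edgeR called 2 in the reported fit, 6 without a filter, 10 with the GC content and length offset, 80 without the libraries labelled KO replicate 1 and WT replicate 3 (64 higher and 16 lower), and 0 with a sex covariate (695 at an unadjusted p under 0.05). DESeq2's Wald test called 121, voom 1, and limma on log2(FPKM + 1) and log2(FPKM + 0.1) without a filter 0 each (1040 and 1033 at an unadjusted p under 0.05). Leaving out 1 library called 0 to 3; the fits with 0 held 509 to 1272 genes at an unadjusted p under 0.05, and the 3 came without KO replicate 1. Whether the numbers pair the libraries is not given in the labels. The deviations of same-numbered libraries correlated at -0.36, 0.145 and 0.138. Those of differently numbered libraries ran from -0.375 to 0.324, a like range, so these values cannot tell pairs apart. With the replicate block 1 gene was called, 0 of them members, and the member median was -0.093.

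The median log2 fold change of the members was -0.072, and -0.029 with upper quartile scaling, -0.018 with library size scaling and -0.15 to -0.064 with 1 library left out. Signs changed for 18 of the 35 members, in no case with a value that passed, and the causes were not tested. Without the libraries labelled KO replicate 1 and WT replicate 3, Atf6 stood at 0.028, Dnajb9 at 0.42, Dnajc3 at 0.081, Eif2ak3 at 0.037, Herpud1 at -0.14, Hsp90b1 at 0.16, Hyou1 at -0.011, Sec61a1 at -0.047, Ssr2 at -0.19, Ssr4 at -0.0093 and Syvn1 at -0.059. With the GC content and length offset, Derl2 stood at 0.24, Dnajb9 and Dnajc3 at 0.17, Herpud1 at -0.059, Hyou1 at -0.050, Spcs1 at 0.32 and Ssr2 at -0.11. With library size scaling, Derl2 stood at 0.0029, Dnajb9 at 0.026, Dnajc3 at 0.0079 and Sdf2l1 at 0.059. With upper quartile scaling, Dnajb9 stood at 0.019 and Sdf2l1 at 0.046, and with DESeq2 size factors Dnajb9 stood at 0.0016. Pdia3 stood at -0.0091 without a filter, -0.0055 with at least 1 CPM in 3 libraries, -0.0017 with DESeq2, -0.076 with voom, -0.072 with the replicate block, -0.036 in each fit of log2 FPKM and -0.0060 with a sex covariate. Sec61g stood at -0.013 without a filter and at -0.31 in each fit of log2 FPKM.

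Leaving out 1 library in turn changed the sign of 16 members, whose values then ranged as follows. Luminal chaperones were Dnajb11 (-0.064 to 0.12), Dnajb9 (-0.34 to 0.41), Dnajc3 (-0.16 to 0.14), Hsp90b1 (-0.51 to 0.088), Hyou1 (-0.076 to 0.23) and Sdf2l1 (-0.32 to 0.18), and isomerases P4hb (-0.28 to 0.018) and Pdia3 (-0.19 to 0.30). Degradation genes were Derl2 (-0.13 to 0.054), Herpud1 (-0.095 to 0.24) and Syvn1 (-0.10 to 1.09), and genes of protein entry Sec61a1 (-0.0016 to 0.33), Sec61g (-0.30 to 0.25), Spcs1 (-0.15 to 0.054), Ssr2 (-0.10 to 0.19) and Ssr4 (-0.0044 to 0.43). Derl3 had 1 to 29 counts per library, too few to be tested in the reported fit.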
